A study of Mus musculus with 2 samples.

Results

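The core spliceosome genes described here were the mouse genes whose symbols begin with Snrp, Sf3a, Sf3b, Prpf, U2af or with Lsm and a digit. This naming rule took 51 of the 27261 genes that had a symbol and a row in either short-read table, and 2 further names ending in -ps, which marks pseudogenes, were left out. Of the 51 genes, 49 had at least 20 unique molecular identifiers (UMIs, each counted as 1 captured RNA molecule) over both cell classes in each aliquot, and 49 were also present in the long-read isoform table. U2af1l4 and Prpf40b fell short of the minimum and have no ratio below. A symbol does not fix a role. Lsm1 works in cytoplasmic mRNA decay, Lsm10 and Lsm11 in the U7 particle that processes histone mRNA, and Lsm14a and Lsm14b in cytoplasmic granules, while Snrpert is annotated as a processed pseudogene of Snrpe.

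The spliceosome removes introns in steps carried out by small nuclear ribonucleoproteins (snRNPs). A ring of Sm proteins encircles the RNA of most of these particles, and a ring of LSm proteins holds the end of U6 snRNA. U1 recognises the 5′ splice site, U2AF and then U2 with SF3A and SF3B recognise the 3′ splice site and the branch point, and the U4/U6.U5 tri-snRNP and the Prp19 complex then build and activate the catalytic centre. Satellite cells, the muscle stem cells (MuSCs) that carry Pax7, are small and quiescent in resting muscle and enlarge and enter the cell cycle after injury.

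All cells came from Pax7creERT2; R26-eYFP fl/fl mice on a C57BL6 background, in which tamoxifen switches on YFP through a Cre driven by Pax7. Mice were given tamoxifen at 3 months of age for 5 days, and YFP+ hindlimb cells were sorted after a further interval. Quiescent MuSCs were from uninjured muscle and activated MuSCs from muscle taken 72 h after injection of 1.2% barium chloride. Both were loaded together into 1 droplet capture (10x 3′ chemistry), so the tables carry no label for a cell's origin and there are no replicates, and a 10% aliquot was sequenced by Illumina and by nanopore while a 90% aliquot was sequenced by Illumina. The labels do not give the number of animals.

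Because origin was not recorded, 2 cell classes were defined from the short-read counts of each barcode. Low-UMI cells held 3000 to 15000 UMIs and none of Rrm2, Top2a or Cdk1, genes of DNA synthesis and mitosis. High-UMI cells held at least 20000 UMIs. The 10% aliquot gave 157 low-UMI cells (median 6729 UMIs) and 79 high-UMI cells (median 65499), and the 90% aliquot gave 1243 (median 4680) and 606 (median 47106). These classes are not the study's groups, they differ in depth by their definition, and no cell of either is known to come from injured or uninjured muscle. Levels are given as CPM, the UMIs of a gene summed over a class per 1000000 UMIs of that class, with exact Poisson or binomial 95% intervals that cover counting error only. No test was run, since cells of 1 capture are not replicates. A gene is called higher or lower where the CPM ratio of high-UMI to low-UMI cells was at least 1.5-fold in the same direction in both aliquots.

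The aliquots were not independent sets of cells. Of the 236 barcodes of the 10% aliquot in a class, 225 (95.3%) were also in a class in the 90% aliquot, 220 of them in the same class. Each of the 263 barcodes with at least 3000 UMIs in both tables had its own counterpart as the most alike profile over 2000 genes. The 90% values of single genes and subcomplexes below therefore leave these 225 out and rest on 1099 low-UMI and 525 high-UMI barcodes. Quiescence markers followed the class split. Their summed level was 589.5 and 79.2 CPM in low-UMI and high-UMI cells of the 10% aliquot and 677 and 75.8 CPM in the 90% aliquot, with 0 of 8 higher in high-UMI cells. Of 8 activation and cycling markers, 7 were higher in high-UMI cells, of which Rrm2, Top2a and Cdk1 were at 0 in low-UMI cells by definition, and Myod1, which marks the start of activation, was lower, at 1106 and 185 CPM in the 10% aliquot. Other features moved with the classes as well. Dissociation-stress genes summed to 1058 and 292 CPM in the 10% aliquot and to 1644 and 273 CPM in the 90% aliquot, with 0 of 5 higher in high-UMI cells. Immune markers summed to 302 and 63.7 CPM and to 219.6 and 2.41 CPM, with UMIs in 2 and 15 low-UMI cells. Of these 5 markers, 3 were higher in high-UMI cells of the 10% aliquot and 0 in the 90% aliquot. Fibro-adipogenic markers summed to 168 and 46.7 CPM and to 257 and 44.4 CPM, though 2 of 4 were higher in high-UMI cells in each aliquot. The part of these features in the spliceosome differences was not tested, except that with all cells holding an immune or endothelial marker UMI left out 30 members were higher (background 37.1% of 9343 genes) and 6 lower (background 19.1%). Mitochondrial UMIs made up 0.883% and 0.881% in the 10% aliquot and 1.28% and 1.19% in the 90% aliquot.

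Core spliceosome genes took a larger share of the RNA molecules in high-UMI cells. In the 10% aliquot they summed to 3204 CPM in low-UMI cells and 6148 CPM in high-UMI cells, a ratio of 1.92 (1.85 to 1.99). In the 90% aliquot the same sums were 3142 and 5970 CPM, a ratio of 1.90 (1.87 to 1.93). Of the 49 members, 31 were higher (background 36.2% of 10072 genes), 7 were lower (background 19.4%) and 11 were neither. The members' median log2 ratio was 1.00 in the 10% aliquot and 1.14 in the 90% aliquot, beside 0.32 and 0.33 over all genes past the minimum. The all-gene medians depended on that minimum and on depth. With at least 1 UMI in each class as the only minimum they were -0.02 and 0.11 in the 10% and whole 90% aliquots (13634 genes). After thinning every cell to 3000 UMIs they were 0.11 and 0.10. Measured from the medians of the genes past the minimum, 23 members were higher (background 27.0%) and 9 lower (background 27.3%), the 2 additions being Lsm14a and U2af1. Leaving out the shared barcodes kept 31 higher (background 35.5% of 10064 genes) and 6 lower (background 18.9%), Prpf38b being the call that was lost.

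**Figure D1:**
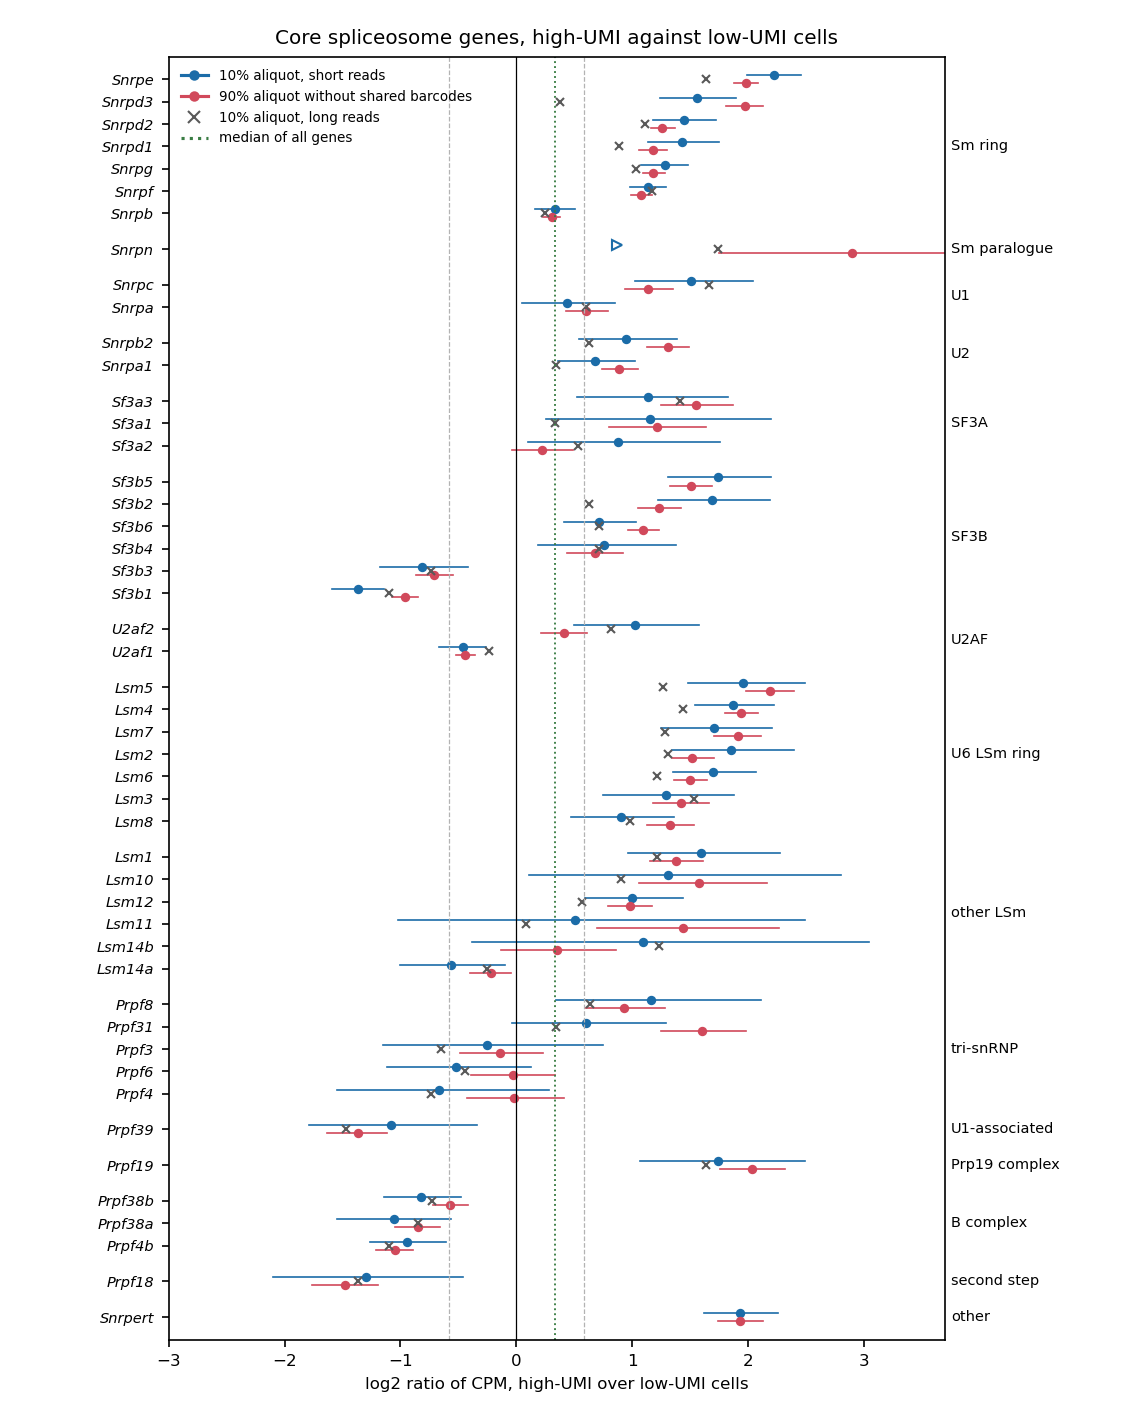
Log2 ratio of CPM, high-UMI over low-UMI cells, for 48 of the 49 members that passed the minimum, grouped by role, with 95% counting intervals for the 10% aliquot (blue) and the 90% aliquot without shared barcodes (red), long-read values as crosses, dashed grey lines at 1.5-fold in either direction and a dotted line midway between the all-gene medians of both aliquots (0.32 and 0.34). Sm and U6 LSm ring genes lie to the right, from 0.31 for Snrpb to 2.22 for Snrpe. The B complex genes, Prpf39, Prpf18, Sf3b1 and Sf3b3 lie left of 0. The open triangle is Snrpn in the 10% aliquot with 3 counts put in for its empty low-UMI class (0.87, lower limit 0.46). The Snrpn interval of the 90% aliquot runs past the axis.

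A share of UMIs is not an amount per cell. The mean number of member UMIs per barcode was 22.7 in low-UMI and 397 in high-UMI cells of the 10% aliquot, and 16.3 and 295 in the whole 90% aliquot. The B complex genes, whose share was lower, went from 1.75 to 8.44 UMIs per barcode and from 1.21 to 6.56. Total UMIs per barcode differ by the class rule, with medians of 6729 and 65499 in the 10% and 4680 and 47106 in the 90% aliquot. A larger count per barcode is thus built into the classes and is not a result about these genes. "Higher" and "lower" below therefore compare shares of a cell's captured RNA. Medians of single cells differed in the same direction. The median cell of the 10% aliquot had 2940 CPM of member UMIs in the low-UMI class and 6220 CPM in the high-UMI class. In the whole 90% aliquot the medians were 2940 and 6030 CPM. Single cells of the classes overlapped. In the 10% aliquot some low-UMI cells reached 5670 CPM or more and some high-UMI cells had 3300 CPM or less. The same levels in the whole 90% aliquot were 5340 and 3650 CPM.

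The 7 Sm genes, which encode the ring shared by the U1, U2, U4 and U5 snRNPs, had larger shares in high-UMI cells, with Snrpb as the exception. Their summed level was 1240 CPM in low-UMI and 3005 CPM in high-UMI cells of the 10% aliquot, a ratio of 2.42 (2.29 to 2.56). The 90% aliquot gave 1130 and 2593 CPM, a ratio of 2.29 (2.24 to 2.36). The interquartile ranges of single cells did not overlap. In the 10% aliquot they ran from 724 to 1540 CPM in low-UMI cells and from 2460 to 3330 CPM in high-UMI cells, and in the whole 90% aliquot from 652 to 1440 CPM and from 2210 to 3020 CPM.

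Snrpe, the SmE subunit (chr1:133603871-133610291, minus strand, GRCm38), had the largest mean log2 ratio of all members. It stood at 142 CPM in low-UMI and 659 CPM in high-UMI cells of the 10% aliquot (4.65-fold, 3.96 to 5.49). In the 90% aliquot it stood at 147 and 581 CPM (3.95-fold, 3.69 to 4.25). Both high-UMI levels lay far above both low-UMI levels. Snrpd3, whose product SmD3 pairs with SmB in the ring, went from 75.4 to 223 CPM (2.96-fold) and from 61.7 to 241 CPM (3.91-fold). For Snrpd2 the levels were 111 and 303 CPM (2.72-fold) and 136 and 327 CPM (2.40-fold). These subunits were followed closely by the remaining ring members. Snrpd1 stood at 87.9 and 238 CPM in the 10% aliquot (2.70-fold) and at 109.5 and 248 CPM in the 90% aliquot (2.27-fold). Snrpg stood at 197 and 479 CPM (2.43-fold) and at 174 and 394 CPM (2.27-fold). Snrpf, the member with the most low-UMI counts in the 10% aliquot, stood at 335 and 736 CPM (2.20-fold) and at 206 and 435 CPM (2.11-fold).

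Snrpb, which encodes SmB, stood apart from its ring partners. Its level was 292 CPM in low-UMI and 368 CPM in high-UMI cells of the 10% aliquot (1.26-fold, 1.12 to 1.42). The 90% aliquot gave 296 and 367 CPM (1.24-fold, 1.18 to 1.31). That is close to the median of the genes past the minimum. The log2 ratio centred on that median was within 0.01 of 0 in the 10% and the whole 90% aliquot. Snrpn is an imprinted paralogue of Snrpb known mainly from brain. In the 10% aliquot it had 0 UMIs in low-UMI cells and 4.90 CPM in high-UMI cells. With 3 counts put in for the empty class its ratio was 1.82, with a lower limit of 1.375. Its 25 UMIs were all in high-UMI cells, so the minimum of 20 was met by that class alone. In the 90% aliquot Snrpn was at 1.08 and 8.03 CPM (7.44-fold, 3.36 to 20.5), a low level in either class. Snrpert, the processed copy of Snrpe on chromosome 2, shared 276 of the 279 bases compared with Snrpe (98.9%). It was listed at 78.1 and 297 CPM (3.81-fold) in the 10% aliquot and at 42.4 and 162 CPM (3.82-fold) in the 90% aliquot, and reads of Snrpe and Snrpert may have been exchanged.

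Snrpb can include an exon with a stop codon, chr2:130176629-130176752 (minus strand, GRCm38), present in the reference isoform Snrpb-203 and absent from the main isoform Snrpb-201. The part of this exon that Snrpb-203 reads in frame is shown because it ends translation early, with the stop codon in capitals.
Snrpb chr2:130176695-130176752, minus strand: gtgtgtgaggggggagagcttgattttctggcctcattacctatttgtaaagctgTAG
Of the reads that supported annotated isoforms crossing this position, 97 of 7056 (1.37%, 1.12% to 1.67%) belonged to isoforms with the exon. Snrpb-201 took 85.5% of the gene's long-read UMIs in low-UMI cells (619 of 724) and 95.2% in high-UMI cells (2749 of 2889). An unnamed isoform that ends inside an intron took 5.52% and 0.762%.

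The U6 LSm ring, formed by Lsm2 to Lsm8, was higher in each of its 7 members (background 36.2% of 10072 genes). Its summed level was 301 CPM in low-UMI and 956 CPM in high-UMI cells of the 10% aliquot, a ratio of 3.18 (2.85 to 3.56). Its sum in the 90% aliquot was 339 and 1119 CPM, a ratio of 3.30 (3.15 to 3.46). The interval of this ratio lay above that of the Sm ring in both aliquots. Lsm5 led the ring, at 32.3 and 126 CPM in the 10% aliquot (3.90-fold) and 35.6 and 162 CPM in the 90% aliquot (4.56-fold). Lsm4 was at 70.0 and 256 CPM (3.66-fold) and at 75.5 and 289.7 CPM (3.84-fold). Lsm7 was at 35.9 and 118 CPM (3.28-fold) and at 39.6 and 148 CPM (3.75-fold). Those genes were above 3-fold in both aliquots, which was not so of the other ring members. Lsm2 stood at 29.6 and 106.5 CPM (3.60-fold) and at 45.5 and 131 CPM (2.88-fold). Lsm6 stood at 62.8 and 203 CPM (3.24-fold) and at 75.0 and 212 CPM (2.83-fold). Lsm3 and Lsm8, the latter particular to the nuclear ring, had ratios of 2.45 and 1.87 in the 10% aliquot and 2.67 and 2.51 in the 90% aliquot.

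Processed pseudogene copies that share sequence with a member's 3′ end took UMIs of their own, and reads could be divided between them. For Lsm5, Lsm6 and Lsm7 the copies held 47.5%, 39.8% and 57.6% of the summed UMIs of member and copies in the 10% aliquot. The figure was 66.7% for Snrpc, 51.5% for U2af1 and 31.5% for Snrpe, whose copies include Snrpert. Adding the copies' UMIs to the member left each call of the 11 members with copies as it was. Lsm5 became 2.09 on the log2 scale in the 10% aliquot against 1.96 alone, and Lsm7 became 1.95 against 1.71. The levels of these genes are thus less certain than their direction.

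Among the other LSm genes, 3 of 6 were higher (background 36.2% of 10072 genes) and 0 were lower (background 19.4%). Lsm1, which replaces Lsm8 in the cytoplasmic ring that starts mRNA decay, was at 19.7 and 59.2 CPM in the 10% aliquot (3.00-fold, 1.95 to 4.86). The 90% aliquot gave 29.7 and 77.0 CPM (2.60-fold, 2.21 to 3.06). Lsm10 of the U7 particle and Lsm12 were also higher, by 2.48-fold and 2.0-fold in the 10% aliquot and 3.00-fold and 1.97-fold in the 90% aliquot. Lsm14a, an RNA granule protein, went the other way without reaching 1.5-fold in both aliquots. It was at 50.3 and 34.1 CPM (0.679-fold) and at 61.7 and 52.8 CPM (0.857-fold). Lsm14b had 4 UMIs in low-UMI cells of the 10% aliquot and no usable direction.

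Of the proteins particular to U1 and U2 snRNPs, 3 of 4 were higher (background 36.2% of 10072 genes). Snrpc, which steadies the pairing of U1 with the 5′ splice site, was at 32.3 and 92.0 CPM in the 10% aliquot (2.85-fold) and at 38.1 and 84.2 CPM in the 90% aliquot (2.21-fold). Snrpa, which binds a U1 stem loop, reached 1.35-fold in the 10% and 1.52-fold in the 90% aliquot, and so met the limit in only the second. Both U2 proteins, which bind U2 snRNA as a pair, were higher. Snrpb2 had ratios of 1.94 and 2.48. Snrpa1 was at 79.9 and 128 CPM (1.61-fold, 1.29 to 2.03) and at 72.1 and 134 CPM (1.86-fold, 1.68 to 2.07).

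The classes also differed in the isoforms of Snrpa1. The main coding isoform Snrpa1-206 includes an exon of 80 bases that the isoform Snrpa1-201 skips, and Snrpa1-201 is annotated as a target of nonsense-mediated decay (NMD). The exon is printed because its length leaves a remainder of 2 after division by 3, so that skipping it shifts the reading frame, and no base is marked.
Snrpa1 chr7:66070119-66070198, plus strand: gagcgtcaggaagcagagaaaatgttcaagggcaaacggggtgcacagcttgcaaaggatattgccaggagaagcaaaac
Snrpa1-206 took 32.1% of the gene's long-read UMIs in low-UMI cells (59 of 184) and 62.0% in high-UMI cells (484 of 781), a difference of 29.9 percentage points (22.1 to 37.1). Snrpa1-201 took 13.0% and 4.35%. The retained-intron isoform Snrpa1-204 took 9.24% and 0.384%. Snrpa1-206 thus held most of the gene's UMIs only in high-UMI cells. Isoforms annotated as NMD target, retained intron or processed transcript together took 22.3% and 4.74%. The rest lay on other isoforms, and whether those without a reference name are coding was not assessed. Over all deposited supporting reads that cross the exon, 1497 of 1834 (81.6%) belonged to isoforms with the exon.

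SF3A and SF3B make up most of the protein of the U2 particle at the branch point, and their members did not move together. All 3 SF3A genes had ratios above 1, and Sf3a1 and Sf3a3 were higher, by 2.23-fold and 2.21-fold in the 10% aliquot and 2.31-fold and 2.94-fold in the 90% aliquot. Sf3a2 was at 13.5 and 24.7 CPM in the 10% aliquot (1.84-fold, 1.07 to 3.38). The 90% levels were 24.8 and 28.9 CPM (1.17-fold, 0.97 to 1.41), so this gene did not keep to the limit.

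The SF3B complex divided into 4 genes that were higher (background 36.2% of 10072 genes) and 2 that were lower (background 19.4%). Sf3b1, the large scaffold that clamps the branch point and is often mutated in blood cancers (chr1:54985169-55027481, minus strand, GRCm38), was at 223 CPM in low-UMI and 86.7 CPM in high-UMI cells of the 10% aliquot (0.388-fold, 0.331 to 0.455). The 90% levels were 162 and 83.1 CPM (0.514-fold, 0.475 to 0.557). Sf3b3, the other large scaffold, was at 73.6 and 42.0 CPM (0.570-fold, 0.440 to 0.745) and at 75.5 and 46.1 CPM (0.611-fold, 0.546 to 0.685). Both scaffolds lay well below their low-UMI level in either set of cells. Sf3b5, a small subunit that binds Sf3b3, was at 41.3 and 138 CPM (3.34-fold, 2.48 to 4.61) and at 48.9 and 139 CPM (2.85-fold, 2.52 to 3.24). Sf3b2 had ratios of 3.22 and 2.35, Sf3b6, which contacts the branch point adenosine, 1.64 and 2.14, and Sf3b4 1.69 and 1.60. Summed, the complex was nearly level, at 487 and 569 CPM (1.17-fold, 1.06 to 1.28) and at 449 and 610.0 CPM (1.36-fold, 1.30 to 1.42).

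The long reads of Sf3b1 covered little of the gene's 3′ part. Of the gene's long-read UMIs, 88.7% in low-UMI cells (486 of 548) and 88.5% in high-UMI cells (759 of 858) were on isoforms that end within a single coding exon of 102 bases. That exon is shown with its runs of 4 or more A in capitals, because oligo-dT primers can also anneal to A-rich stretches inside an RNA.
Sf3b1 chr1:55003104-55003205, minus strand: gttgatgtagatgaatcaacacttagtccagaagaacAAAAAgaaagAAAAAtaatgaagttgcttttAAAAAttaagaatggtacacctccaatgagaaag
The most frequent end was at base 29 of the exon, upstream of the first run at bases 38 to 42, and the retained-intron isoform Sf3b1-203 ended at base 55, just past the second run at bases 48 to 52. Whether priming on these runs made the ends was not tested. Sf3b1-203 took 14.6% of UMIs in low-UMI and 6.41% in high-UMI cells, a difference of -8.19 points (-11.7 to -4.91). The share of UMIs ending in the exon itself differed between classes by less than counting error.

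U2AF is the heterodimer that reads the polypyrimidine tract and the AG at the 3′ splice site. Apart from the B complex and Prpf18, it alone had a summed short-read ratio below 1 in both aliquots. Its short-read level was 257.5 and 225 CPM in the 10% aliquot (0.874-fold, 0.767 to 0.999). The 90% aliquot gave 323 and 265 CPM (0.820-fold, 0.778 to 0.864). By long reads the sum was above 1 (1.13-fold, 1.04 to 1.23). U2af1, the small subunit that contacts the AG (chr17:31647081-31658892, minus strand, GRCm38), was at 228 and 165 CPM (0.725-fold, 0.629 to 0.837) and at 278 and 205 CPM (0.738-fold, 0.697 to 0.782). This is below 1 in both sets of cells and short of the 1.5-fold limit, which U2af1 passed once ratios were measured from the median of all genes (log2 -0.79 in both the 10% and the whole 90% aliquot). U2af2, the large subunit, had ratios of 2.03 and 1.33.

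U2af1 is made in forms that use either of 2 neighbouring exons of 67 bases, and using both brings in a stop codon. The exons are printed to show how alike they are. In the exon of U2af1-201 the capitals mark the stop codon that U2af1-208, the isoform with both exons, reads in frame at base 27. In the exon of U2af1-202 the capitals mark the bases that differ from the exon of U2af1-201 at the same position.
U2af1-201 chr17:31651646-31651712, minus strand: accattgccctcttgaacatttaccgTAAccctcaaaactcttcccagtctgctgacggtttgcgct
U2af1-202 chr17:31652502-31652568, minus strand: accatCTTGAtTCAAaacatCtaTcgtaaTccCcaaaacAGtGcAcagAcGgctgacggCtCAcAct
The exons agree at 44 of 67 positions (65.7%). Each leaves a remainder of 1 after division by 3 and together they leave 2, so a transcript with both is out of frame with a transcript of either kind. The upstream exon on the gene's strand is that of U2af1-202.

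**Figure D2:**
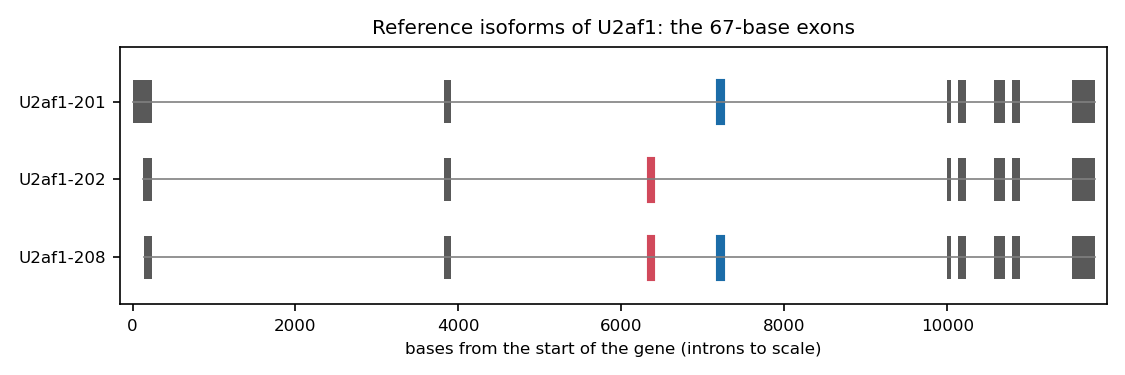
Exons of the reference isoforms U2af1-201, U2af1-202 and U2af1-208 drawn to scale against the distance in bases from the start of the gene, with the 67-base exon of U2af1-201 in blue and that of U2af1-202 in red. U2af1-201 and U2af1-202 differ in which of these exons they carry, and U2af1-208 carries both.

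Among reads supporting annotated isoforms that cross the site, 2945 of 3735 (78.8%, 77.5% to 80.1%) belonged to isoforms with the exon of U2af1-201 and 819 of 3731 (22.0%, 20.6% to 23.3%) to isoforms with the exon of U2af1-202. Isoforms with both had 241 reads. In single cells, U2af1-208, annotated as an NMD target, took 12.7% of U2af1 UMIs in low-UMI cells (62 of 488, in 30 barcodes) and 5.29% in high-UMI cells (73 of 1381, in 25 barcodes), a difference of -7.42 points (-10.8 to -4.45). U2af1-202 itself was at 17.6% and 15.1%, within counting error, and the main isoform, which has no reference name, was at 57.2% and 68.2%. The lower share of the form with both exons thus went with a larger share of the main form and not of U2af1-202.

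Of the 5 tri-snRNP genes, 2 were higher (background 36.2% of 10072 genes), 0 were lower (background 19.4%) and 3 were neither. The count of higher genes was thus near the background. Prpf8, the large protein at the catalytic centre, was higher with ratios of 2.24 and 1.90. Prpf31, which binds U4 and is mutated in an inherited blindness, was at 20.6 and 31.2 CPM in the 10% aliquot (1.51-fold, 0.97 to 2.45) and at 12.4 and 37.6 CPM in the 90% aliquot (3.03-fold, 2.38 to 3.93). Its 10% ratio was barely past the limit, with an interval that includes 1. Prpf3, Prpf4 and Prpf6 had ratios between 0.627 and 0.841 in the 10% aliquot and between 0.908 and 0.984 in the 90% aliquot, and were neither higher nor lower. The whole subcomplex was at 84.3 and 94.3 CPM (1.12-fold) and at 67.2 and 104 CPM (1.54-fold).

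Prpf19, the ubiquitin ligase at the core of the Prp19 complex, was among the members with the largest ratios. It was at 17.1 and 56.9 CPM in the 10% aliquot (3.34-fold, 2.10 to 5.62) and at 20.1 and 82.3 CPM in the 90% aliquot (4.09-fold, 3.38 to 4.99). Prpf39, an auxiliary U1 protein, was lower, at 22.4 and 10.6 CPM (0.472-fold, 0.289 to 0.792) and at 36.3 and 14.0 CPM (0.386-fold, 0.324 to 0.462).

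The 3 B complex genes, whose products enter as the tri-snRNP is activated, were lower in share as a group. Together they were at 246 and 131 CPM in the 10% aliquot (0.532-fold, 0.462 to 0.615) and at 229.6 and 131.5 CPM in the 90% aliquot (0.573-fold, 0.537 to 0.612). Prpf4b, a kinase that phosphorylates tri-snRNP proteins, was at 100.5 and 52.4 CPM (0.521-fold) and at 85.9 and 41.5 CPM (0.482-fold). Prpf38a was at 46.7 and 22.4 CPM (0.479-fold) and at 55.2 and 30.6 CPM (0.554-fold). Prpf38b was at 98.7 and 56.1 CPM (0.568-fold) and at 88.5 and 59.5 CPM (0.673-fold), which in the 90% aliquot without shared barcodes fell just inside the 1.5-fold limit. Prpf18, needed for the second catalytic step, had the lowest mean ratio of all members. It was at 18.8 and 7.65 CPM (0.406-fold, 0.233 to 0.726) and at 30.2 and 10.9 CPM (0.359-fold, 0.295 to 0.438).

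Long reads of the same barcodes gave the same signs for single members with a short-read ratio, but not for every subcomplex sum. All 29 higher members with a long-read value had long-read log2 ratios above 0, from 0.33 to 1.74, and all 7 lower members had values below 0, from -1.47 to -0.73. Long and short reads share the 10% library, so this is not a replicate. All 11 members that were neither also kept their sign, so the match in sign is not particular to the called members. The member sum was 4945 and 7496 long-read CPM (1.52-fold, 1.48 to 1.56), a smaller ratio than with short reads. The Sm ring was at 1657 and 3089 CPM and the U6 LSm ring at 454 and 1132 CPM by long reads. The U2AF sum was above 1 by long reads (1.13-fold, 1.04 to 1.23) and below 1 by short reads (0.874-fold). That long-read sum includes U2af1l4, at 19 and 196 UMIs, which had no row in the short-read table of the 10% aliquot. The SF3B sum was 0.934-fold (0.871 to 1.001) by long reads and 1.17-fold by short reads.

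Depth and cell cycle were mixed in the class comparison, so levels were also read in bins of UMIs per barcode, with barcodes that had a UMI of Rrm2, Top2a or Cdk1 separated from those without. Among barcodes of 3000 to 15000 UMIs, those with such a UMI (21 in the 10% and 148 in the 90% aliquot) had 1.93 times (1.72 to 2.17) and 1.75 times (1.66 to 1.84) the Sm ring level of those without. The same ratio was 2.42 (1.94 to 3.01) and 2.17 (1.995 to 2.36) for the U6 LSm ring and 1.55 (1.43 to 1.67) and 1.48 (1.43 to 1.53) for all members. For Prpf19 it was 2.62 in the 10% aliquot, where it rests on 7 UMIs and its interval includes 1 (0.932 to 6.52), and 2.42 (1.70 to 3.38) in the 90% aliquot. These barcodes also had more mitochondrial UMIs, 2.62% in the 10% and 2.09% in the 90% aliquot, and their median depth in the 90% aliquot was 5593 UMIs, against 4680 in those without a cell cycle UMI, so depth was alike only in its limits. The part of either in these ratios was not tested. By this comparison 20 of 41 members were higher (background 13.2% of 4692 genes) and 1 was lower (background 10.6%). The B complex had smaller ratios, 1.01 (0.706 to 1.42) in the 10% aliquot and 1.19 (1.05 to 1.36) in the 90% aliquot, where the interval lay above 1.

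In the 90% aliquot, the Sm ring of barcodes without a cell cycle UMI was at 1079 CPM between 3000 and 5000 UMIs, at 1435 CPM between 10000 and 15000 UMIs and at 1908 CPM between 40000 and 60000 UMIs. With a cell cycle UMI the same bins gave 1462, 2756 and 2673 CPM. The Sm level was thus higher with a cell cycle UMI in each of these bins, and it was also higher in deeper bins without one. The B complex was at 243 CPM without and 421.5 CPM with a cell cycle UMI between 3000 and 5000 UMIs, at 204 and 201 CPM between 10000 and 15000 UMIs and at 122 and 132 CPM between 20000 and 40000 UMIs. Its level was lower in deeper bins of either kind. High-UMI cells without any cell cycle UMI numbered 9 and 35, and with those cells as the high class 14 of 41 members were higher (background 21.7%) and 8 were lower (background 22.2%), and the ratio of the member sum was 1.33 and 1.35. Below 15000 UMIs a cell in S phase or mitosis can lack these UMIs by chance, and cell size, RNA content and cycle cannot be told apart here.

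**Figure D3:**
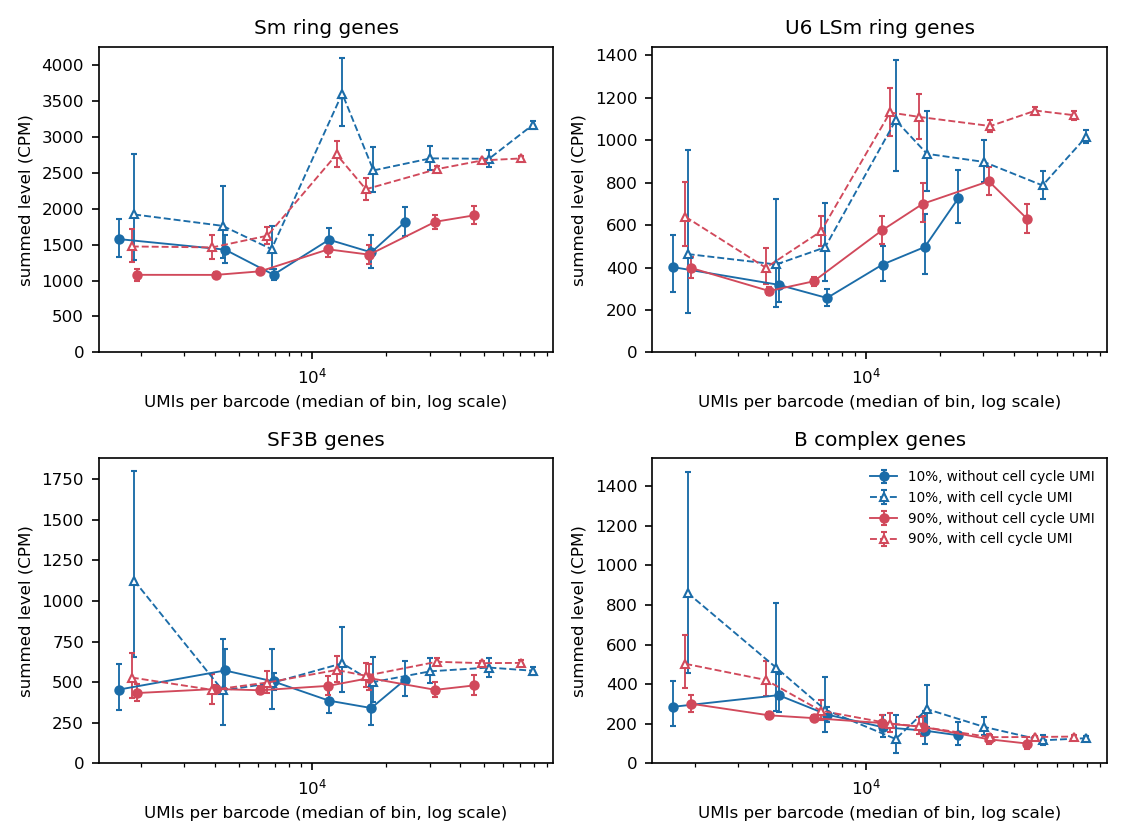
Summed level (CPM, with 95% counting intervals) of the Sm ring, U6 LSm ring, SF3B and B complex genes against the median UMIs per barcode of each depth bin (log axis), for barcodes with (triangles, dashed) and without (circles, solid) a UMI of Rrm2, Top2a or Cdk1 in the 10% (blue) and 90% (red) aliquots. Sm ring points of the 90% aliquot with a cell cycle UMI reach 2756 CPM between 10000 and 15000 UMIs, above 1435 CPM without one, while B complex points fall toward deeper bins on both lines.

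Long reads also showed which isoforms of each gene were present. Among the 38 members with at least 50 long-read UMIs in each class, 7 had an isoform whose share of the gene's UMIs differed by at least 20 percentage points (background 17.3% of 3265 genes), and the median of the largest difference per gene was 11.6 points against 10.6 points over all genes. In 6 of the 7 this isoform had the larger share in high-UMI cells. Lsm7-201, a coding isoform, took 50.8% in low-UMI cells (31 of 61) and 89.1% in high-UMI cells (443 of 497), a difference of 38.3 points (25.8 to 50.8). Prpf31-201, also coding, took 17.8% (16 of 90) and 51.8% (198 of 382), a difference of 34.1 points (23.6 to 42.3). The third was Snrpa1-206, described above.

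The other 4 of these isoforms carry no reference name. In Sf3a2 the leading isoform took 43.5% and 67.5%. The leading Lsm1 isoform took 41.1% and 62.1%, and ends within an exon instead of at an annotated end. The Lsm6 isoform that led in high-UMI cells took 16.7% and 36.7%, while another, ending within an exon, led in low-UMI cells with 30.8% (24 of 78). In Snrpd3 the isoform that differed most ends within an intron, chr10:75518014-75521704 (plus strand, GRCm38), and took 26.3% (26 of 99) in low-UMI cells and 3.01% (13 of 432) in high-UMI cells, a difference of -23.3 points (-32.8 to -15.3). Just outside the limit was Lsm5-201, at 72.5% and 91.0%.

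**Figure D4:**
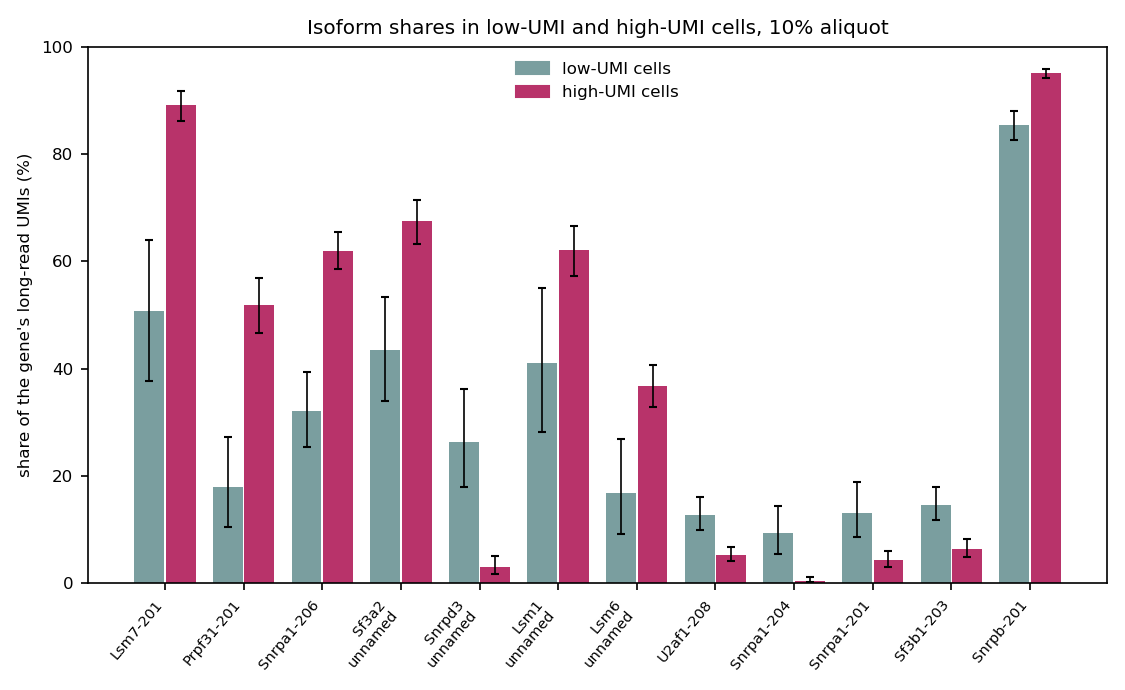
Share of a gene's long-read UMIs (%, with exact 95% binomial intervals) held by single isoforms in low-UMI (grey-green) and high-UMI (magenta) cells of the 10% aliquot; the first 7 are the isoforms that differed by at least 20 points and the others are isoforms named in the text. Lsm7-201 goes from 50.8% to 89.1%, while U2af1-208, Snrpa1-201, Snrpa1-204 and Sf3b1-203 have the smaller share in high-UMI cells.

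Isoforms that the reference types as NMD target, retained intron or processed transcript, called unproductive here, took a smaller share of member UMIs in high-UMI cells. They made up 4.02% in low-UMI cells (275 of 6836, 3.57% to 4.52%) and 1.24% in high-UMI cells (431 of 34692, 1.13% to 1.36%), a difference of -2.78 points (-3.29 to -2.32). Over all genes the shares were 2.20% and 1.63%, a difference of -0.572 points. The member share was thus above that of all genes in low-UMI cells and below it in high-UMI cells. It rested on few genes. Of the 275 UMIs in low-UMI cells, Sf3b1 held 80, all on Sf3b1-203, U2af1 held 62 and Snrpa1 held 41. Retained-intron isoforms made up 1.92% and 0.398% of member UMIs and NMD targets 1.74% and 0.574%, while processed transcripts, at 0.366% and 0.271%, differed by less than counting error. Among UMIs on reference-named isoforms alone, the unproductive share of members was 11.5% and 2.78%, beside 5.52% and 3.59% for all genes.

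Unproductive UMIs of all members were spread over 77 of the 157 low-UMI and 72 of the 79 high-UMI barcodes, with at most 16 and 24 in a single barcode. The 21 barcodes of 3000 to 15000 UMIs with a cell cycle UMI had 1.91% (24 of 1254, 1.23% to 2.83%). Of the 38 members, 7 had a lower unproductive share in high-UMI cells (background 12.0% of 3265 genes), 3 had a higher share (background 6.89%) and 28 had no such UMI in either class. The lower ones were Snrpa1 (22.3% and 4.74%), Prpf31 (18.9% and 9.42%), Sf3b1 (14.6% and 6.41%), U2af1 (12.7% and 5.29%), Lsm2 (10.5% and 4.90%), Lsm5 (9.89% and 1.76%) and Snrpg (5.58% and 2.52%). Single barcodes weighed heavily in 3 of these: in low-UMI cells Lsm2-203 had 8 UMIs in 3 barcodes with 6 in one, Lsm5-202 had 9 in 3 with 5 in one, and Prpf31-205 had 17 in 5 with 9 in one. Of the 3 in the other direction, Prpf38b went from 12.9% to 17.9% through its NMD isoform Prpf38b-204, a difference whose interval includes 0 (-0.605 to 10.0 points), and Lsm7 and Sf3a3 had 0 such UMIs in low-UMI cells. The difference was -1.51 points when each gene had the same weight in both classes, set by its UMIs over both. The -2.78 points thus also include a change in the mix of member genes between classes. The same weighting was not done for all genes, so the contrast with all genes is not adjusted for gene mix.

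**Figure D5:**
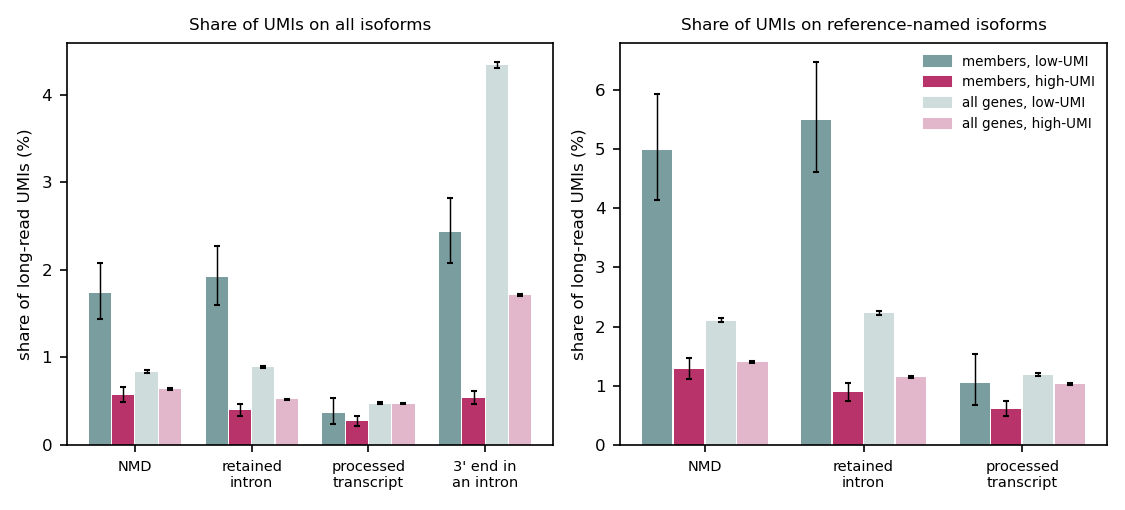
Share of long-read UMIs (%, with exact 95% binomial intervals) on NMD, retained-intron and processed-transcript isoforms and on isoforms ending in an intron, for members and for all genes in low-UMI and high-UMI cells of the 10% aliquot, out of all UMIs (left) and out of UMIs on reference-named isoforms (right). Retained-intron isoforms of members are at 1.92% and 0.398% on the left, against 0.890% and 0.523% for all genes.

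Isoforms ending more than 100 bases from any annotated end and inside an intron were counted apart. They took 2.43% of member UMIs in low-UMI cells (166 of 6836) and 0.539% in high-UMI cells (187 of 34692), a difference of -1.89 points (-2.29 to -1.54). Over all genes they took 4.34% and 1.71%, a difference of -2.63 points, so the member share on such isoforms was smaller in either class. The share was lower in high-UMI cells in 6 of 38 members (background 35.3%) and higher in 4 (background 11.6%). In low-UMI cells Snrpd3 and Snrpb held the most such UMIs, 41 and 40 of the 166, and the share within Snrpd3 was 41.4% and 4.40%. Without these isoforms the long-read log2 ratio of Snrpd3 was 1.09, against 0.38 with them and 1.56 by short reads. Sf3a3 was at 20.0% and 3.48%, and Snrpb at 5.52% and 0.762%.

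Genes of the pathway that the naming rule does not take had smaller ratios at the median. Of 74 such genes, 71 passed the UMI minimum, 29 were higher (background 36.2%) and 6 lower (background 19.4%), with median log2 ratios of 0.39 in the 10% and 0.44 in the whole 90% aliquot. Ppil1, a peptidyl-prolyl isomerase of the activated spliceosome, was at log2 ratios of 3.59 and 3.58, the largest in the 10% aliquot. Snrnp25 of the minor spliceosome was at 2.72 and 3.71, the largest in the 90% aliquot, and Gemin2, which gathers Sm proteins for ring assembly, at 3.09 and 3.10. At the other end Dhx8, the helicase that releases spliced mRNA, was at -1.75 and -1.64, Rnpc3 of the minor spliceosome at -1.27 and -1.11, and Syf2, a Prp19-related protein, at -1.04 and -1.20. By list, 9 of 19 snRNP proteins outside the rule, 7 of 20 Prp19-related proteins, 6 of 14 Sm assembly factors, 3 of 8 helicases, 3 of 5 exon junction proteins and 1 of 5 splice site proteins were higher.

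The higher members had shorter transcripts than the lower members. The median length of the longest coding transcript was 1620 bases over the 30 higher members with a length, 4069 bases over the 7 lower members and 2566 bases over the 11 others. All genes were ordered in the same way, with medians of 2339.5, 3786.5 and 3222 bases, so the order itself is not particular to spliceosome genes. The median number of exons was 5, 14 and 9 for the members and 8, 9 and 9 for all genes. Whether length had a part in the ratios was not tested.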

How the data were processed

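The authors deposited UMI counts per gene for the 10% and 90% aliquots (Illumina, scPipe) and UMI counts per isoform for the 10% aliquot (nanopore, FLAMES), with an isoform annotation that gives counts of supporting reads. The deposited counts were not normalised. The submitters' processing notes name minimap2 2.17, Cell Ranger 1.3 and GRCm38.p6. Gene and transcript types came from Gencode vM21, promoters from RefSeq.

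Barcodes were classed by short-read UMIs as given in the report, UMIs were summed per class, and CPM, ratios and shares were computed with exact 95% intervals (Newcombe's for differences of shares). Members needed 20 UMIs over both classes in each aliquot, and isoforms 50 long-read UMIs per gene in each class. Each class rests on 1 capture, so no test between classes was run. The totals were 1114508 and 5099209 UMIs in low-UMI and high-UMI cells of the 10% aliquot, 6452314 and 29875734 in the 90% aliquot and 1382498 and 4628237 by long reads. Doublets (8 of 330 and 3 of 2420 cells by the Scrublet method of scanpy 1.11.5) were left out in an alternative only.

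Genes were named by rule: the Sm ring, the 10 largest and 10 smallest mean log2 ratios, members with an isoform shift of 20 points, and up to 3 examples per subcomplex. The members, lists and rules were chosen with earlier results of these data known. Alternatives changed depth limits, cell cycle UMIs, scaling, thinning, minimums and fold. The values of 1 member are not reported here, though it enters the sums and counts. The functions were tested on simulated data. Computations used Python 3.11.15, numpy 2.4.6, scipy 1.17.1, pandas 2.3.3 and matplotlib 3.10.9.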

Additional observations from a re-analysis of the deposited data

Results flagged for a closer look

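UMIs were also present on genes outside the member list that copy members. The copies are annotated as pseudogenes and share at least 10 words of 31 bases with the last 300 bases of a member's transcript, and they were singled out because their UMIs lie outside the comparisons of the report. Over both classes, copies of Lsm5 held 613 UMIs in the 10% and 3601 in the 90% aliquot, copies of Lsm6 733 and 4139, copies of Lsm7 870 and 4284, and copies of Snrpc 1010 and 5735. Copies of U2af1 held 1165 and 7351 UMIs. Those of Snrpe held 1619 UMIs in the 10% aliquot, of which most were on Snrpert, itself listed among the members. The copies' log2 ratios had the sign of their member's in both aliquots for these 6 genes, from -0.41 and -0.47 for the copies of U2af1 to 2.25 and 2.46 for those of Lsm5. Of the names left out for -ps, Snrp1c-ps1 had 4 UMIs in high-UMI and 0 in low-UMI cells of the 90% aliquot.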

How the results depend on the processing

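Of 128 values of the summary results under alternatives, 87 stayed within a limit and 41 moved past it. The limit was the 95% interval of the value as reported for ratios, shares and medians, and 1.5 times for counts, so that small changes of a precise ratio count as moved. Cells of 3000 to 15000 UMIs with a cell cycle UMI as the high class, leaving out immune or endothelial marker cells, adding copies and leaving shared barcodes out of the 90% aliquot alone were chosen after seeing the data. The share ratio of all members (1.92 in the 10%, 1.91 in the whole 90% aliquot) became 1.97 (90%) with low-UMI cells of 3000 to 8000 UMIs, 1.84 and 1.62 with 8000 to 15000 UMIs, 1.80 and 1.79 with cell cycle UMIs allowed, 1.68 and 1.81 with high-UMI cells of 20000 to 40000 UMIs, 1.53 and 1.51 after centring, and 1.52 with long reads. With high-UMI cells lacking cell cycle UMIs it was 1.33 and 1.35, 14 members were higher (background 21.7%) and the median log2 ratios were 0.23 and 0.31. With cells of 3000 to 15000 UMIs that held a cell cycle UMI it was 1.55 and 1.48, and the 90% median was 0.63. In that setting 20 members were higher (background 13.2%) and 1 lower (background 10.6%). The 10% median was 1.29 after thinning to 3000 UMIs, 0.68 after centring and 0.64 with long reads. After thinning, 4 of 34 members were lower (background 23.9% of 3306 genes). A 2-fold limit left 3 members lower (background 13.0% of 10072 genes).

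Leaving shared barcodes out of both aliquots kept 8 low-UMI and 3 high-UMI cells of the 10% aliquot, so the 10% values then rest on very few cells. Of 5 members past the minimum, 1 was higher (background 15.5% of 856 genes) and 0 lower (background 8.06%). The 10% median was 0.54 and the share ratio 1.37. On these cells the log2 ratio changed sign for Lsm1 (-1.54), Lsm2 (-0.12), Lsm5 (-0.54), Snrpd3 (-0.54), Snrpg (-0.95), Prpf18 (1.05), Prpf38a (1.05), Prpf39 (0.05) and Sf3b1 (0.63). Elsewhere the 10% sign changed for Snrpn (-0.42 with low-UMI cells of 8000 to 15000 UMIs, -0.56 with high-UMI cells of 20000 to 40000 UMIs, -0.59 after thinning) and Prpf31 (-0.01 after thinning), and with high-UMI cells lacking cell cycle UMIs for Prpf31 (-0.53), Lsm7 (-0.16) and Snrpa1 (-0.09). Of 722 values of called named members under alternatives, these 16 changed sign.

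An isoform shift, in 7 of 38 members and 564 of 3265 genes, was in 4 of 25 members (398 of 2189 genes) with low-UMI cells of 3000 to 8000 UMIs, 1 of 14 (184 of 1595) with 8000 to 15000 UMIs, 4 of 27 (234 of 1710) with high-UMI cells of 20000 to 40000 UMIs, 2 of 11 (89 of 1014) with high-UMI cells lacking cell cycle UMIs, 1 of 17 (63 of 1116) with reference-named isoforms alone and 2 of 22 (194 of 1823) at 100 UMIs, fewer members being tested in each. Among the 38 it was in 22 (1746 of 3265 genes) at 10 points and 2 (184) at 30 points. The unproductive difference was -2.0 points with low-UMI cells of 8000 to 15000 UMIs and -2.2 with high-UMI cells lacking cell cycle UMIs. It was -8.73 among reference-named isoforms and -1.51 with each gene's weight held the same in both classes. The causes were not tested. No paired analysis was possible because both aliquots come from 1 capture and no group has a replicate. Depth limits single genes most in low-UMI cells of the 10% aliquot.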

Other observations

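Promoters of the members were read from RefSeq (GRCm38, 250 bases before to 50 after the start, both strands), which held 40 of the 51 members among 27025 promoters. GGGCGG, the GC box bound by Sp1-type factors, was in 62.5% of member promoters and 35.9% of all promoters, CCAAT in 45.0% and 37.9%, and CCGGAAGT, an ETS-type word, in 17.5% and 4.0%. GCGCATGC, bound by NRF1, was in 10.0% and 2.80%, AAGATGGC, a YY1-type word, in 7.5% and 2.88%, TGACGTCA in 5.0% and 1.88% and CACGTG in 10.0% and 7.24%. TATAAA was in 5.0% and 14.2%. These are matches of letters and not sites of binding. The 120 bases before the start are shown for a member that was higher in high-UMI cells and one that was lower, as examples, with GGGCGG and CCAAT on either strand in capitals.
Prpf19 chr19:10895111-10895230, plus strand: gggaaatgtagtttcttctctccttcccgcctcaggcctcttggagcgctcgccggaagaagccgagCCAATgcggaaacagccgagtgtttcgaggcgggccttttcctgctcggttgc
Prpf38b chr3:108911730-108911849, minus strand: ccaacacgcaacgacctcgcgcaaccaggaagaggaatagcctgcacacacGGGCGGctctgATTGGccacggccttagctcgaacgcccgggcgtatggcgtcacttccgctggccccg
Both windows hold a CCAAT, and GGGCGG is in the Prpf38b window only. These examples do not compare higher with lower members.

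Barcodes with fewer than 500 UMIs, 1612 in the 10% and 391 in the 90% aliquot, also held member UMIs. Summed over these barcodes, all members were at 4246 and 3556 CPM, the Sm ring at 1992 and 1222 CPM, the U6 LSm ring at 604 and 647 CPM and the B complex at 121 and 384 CPM. For all members, the U6 LSm ring and the Sm ring these levels lay between those of low-UMI and high-UMI cells in both aliquots. No intervals were computed for them, and barcodes of this depth hold few UMIs. The Sm ring level of the 90% aliquot was close to that of its low-UMI cells, 1131 CPM in the whole aliquot. The part of free RNA in the class levels was not tested.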
